A study of Mus musculus with 2 samples.

Results

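The T-box genes encode transcription factors that bind DNA through a shared domain, the T-box. The 10 members described here, Tbx1, Tbx2, Tbx3, Tbx4, Tbx5, Tbx6, Tbx15, Tbx18, Tbx20 and Tbx22, were taken by symbol from a list. That list was chosen with earlier results of these data known. The members are 10 of the 55416 genes in the count table. Their expression was read from bulk RNA-sequencing of 2 murine rhabdoid tumors, aggressive malignancies driven by inactivation of Smarcb1, which encodes a component of SWI/SNF chromatin remodellers. One tumor was labelled intracranial and came from the trigeminal nerve, the other was labelled extracranial and came from the face at the upper jaw. Both had been assigned to the MYC subgroup.

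Both groups shared one genotype, written dppa3-cre_Smarcb1 in the labels. Cre was driven by Dppa3, which is active in primordial germ cells, the precursors of sperm and egg. The study described the tumor-bearing mice as heterozygous for the floxed allele (Smarcb1 fl/+), whereas the design text named a Smarcb1 fl/fl strain as one parent. No agent had been given, mouse age was not in the labels, and no library of Cre-negative or normal tissue was analysed here. Each location had 1 library, so no p-value could be given, and every difference compares 2 libraries and not 2 locations.

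Total counts were 34545846 in the intracranial and 26915696 in the extracranial library. At this depth 3 counts, taken as the floor of detection, corresponded to 0.0868 and 0.111 CPM, the level of a gene as its count over the scaled library size in the usual unit. Intervals are exact 95% Clopper-Pearson intervals that cover counting error only, since 1 library per location gives no spread over tumors. Reads carried no molecular identifiers, so repeated copies of a molecule counted as separate reads and the intervals can be too narrow. Smarcb1 itself held 10.5 CPM (9.45 to 11.6) in the intracranial and 19.8 CPM (18.2 to 21.6) in the extracranial tumor. These are RNA levels of bulk tissue, whereas by staining the study reported Smarcb1 protein as lost in its trigeminal and upper jaw tumors. The libraries differed widely in the markers of other cell types: 5 keratinocyte genes summed to 19231 CPM in the intracranial library and to 0.598 CPM in the extracranial one, where Krt5 and Trp63 were at 0. This keratinocyte RNA lay in the library labelled intracranial. Locations are used here as labelled and were not tested against the markers. In bulk tissue, fewer cells of a type and less RNA per cell cannot be told apart.

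T-box factors pattern tissues in the embryo and often act in a dose-dependent way, some mainly as activators and others, such as Tbx2 and Tbx3, as repressors. In head, trunk and limb they mark mesenchymal progenitors: Tbx1 the pharyngeal arches, Tbx15 and Tbx18 the dermal and skeletal mesenchyme, Tbx22 the palate, Tbx4 and Tbx5 the limb buds and lung, Tbx6 the paraxial mesoderm that forms somites, and Tbx20 the heart. Several members arose as duplicated pairs and kept much of their T-box sequence.

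That likeness matters for counting reads, so the closest coding stretches of the duplicated pairs that were detected are shown. Each stretch is 72 bases long and spans an exon junction, and the capitals mark the bases at which the pair differs. Those of Tbx15 and Tbx18 lie in exons 3 and 4, at chr3:99313092-99314792 on the plus strand and at chr9:87724425-87727386 on the minus strand, and differ at 8 bases. Those of Tbx2 and Tbx3 lie in exons 1 and 2, at chr11:85833431-85834620 and chr5:119672334-119674026, both on the plus strand, and differ at 9 bases. Coordinates and sequence are those of GRCm38, an older build than the one on which the counts were made, and the regions include the intron that the printed sequence skips.
Tbx15: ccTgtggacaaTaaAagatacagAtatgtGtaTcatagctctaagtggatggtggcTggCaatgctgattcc
Tbx18: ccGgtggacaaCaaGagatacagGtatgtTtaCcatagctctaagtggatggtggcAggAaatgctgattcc
Tbx2: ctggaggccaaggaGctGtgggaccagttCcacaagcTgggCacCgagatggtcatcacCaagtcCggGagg
Tbx3: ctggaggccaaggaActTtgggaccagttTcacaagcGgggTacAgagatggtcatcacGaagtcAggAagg

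No stretch of 72 bases was identical between the transcripts of any 2 of the 10 members, and the longest identical run between their coding sequences was 23 bases. Tbx4 and Tbx5 differed at 8 bases in their closest stretch. A read of that length could therefore be assigned to 1 member of a pair by its mismatches. Overlap with genes on the other strand was present at Tbx18, where 792 of 4646 stretches (17.0%) were shared with D030062O11Rik, and at Tbx3, where 45 of 6682 (0.673%) were shared with Tbx3os1. Whether counting had used the strand was not stated, so reads in those shared stretches cannot be told apart.

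Of the 10 members, 7 had at least 10 counts over both libraries and entered the comparison. Tbx4, Tbx5 and Tbx22 were at 0 in both libraries, which allows at most 0.106 CPM in the intracranial and 0.138 CPM in the extracranial tumor by the exact interval. Tbx15 and Tbx20 were higher in the extracranial library, Tbx1, Tbx2 and Tbx6 had ratios below 1, Tbx3 was slightly higher in the extracranial library, and Tbx18 held the same level in both within counting error. A gene was called when the whole interval of its ratio lay beyond 4-fold. By this rule 2 members, Tbx15 and Tbx20, were called higher in the extracranial library, where 1.78% of the 21977 genes tested were called, and 0 members were called higher in the intracranial library, where 5.41% were. With 2-fold in place of 4-fold, the same 2 members passed toward the extracranial tumor (5.86% of all genes) and Tbx1 passed toward the intracranial one (9.77%). Tbx20 passed the count filter through its extracranial counts alone. The median log2 ratio was -0.03 over the 7 tested members and -0.04 over all genes tested.

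**Figure D1:**
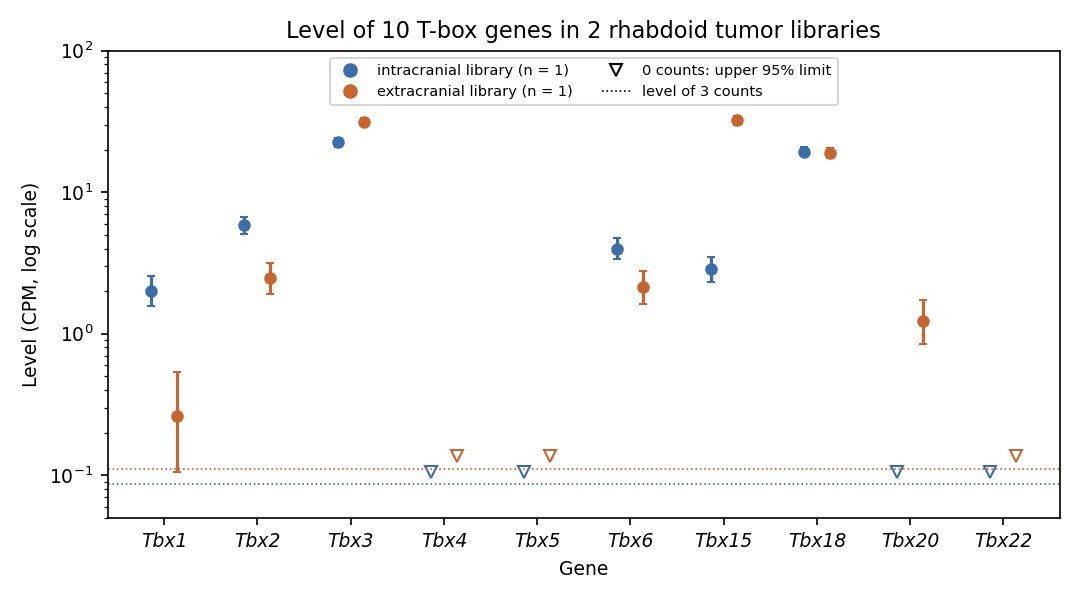
Level of each T-box member in CPM (log axis) in the intracranial and the extracranial library, 1 library each, with exact 95% counting intervals. Triangles mark the upper limit for a member with 0 counts and dotted lines the level of 3 counts. Tbx3 and Tbx18 lie between 19.0 and 31.3 CPM in both libraries, while Tbx15 lies at 2.85 CPM in one and at 32.2 CPM in the other.

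**Figure D2:**
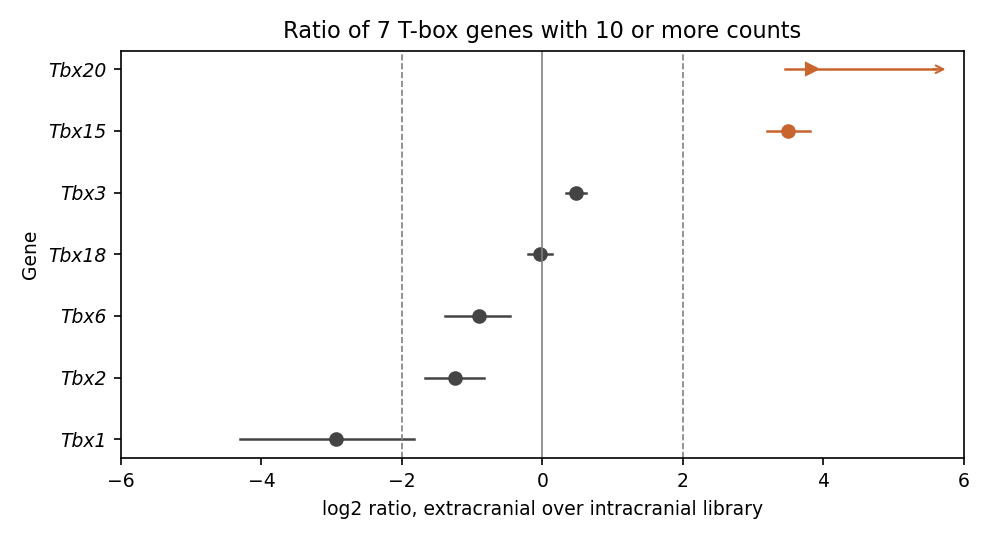
Log2 ratio of extracranial over intracranial CPM for the 7 tested members, with exact 95% intervals of the ratio. Dashed lines mark 4-fold in either direction, orange marks the 2 called members, and the triangle with an arrow is a lower bound for Tbx20, which had 0 intracranial counts.

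Tbx15 (ENSMUSG00000027868, chromosome 3), which patterns dermal and skeletal mesenchyme, had 99 counts in the intracranial and 862 in the extracranial library. These were 2.85 CPM (2.32 to 3.47) and 32.2 CPM (30.1 to 34.4). The intervals were far apart: Tbx15 was 11.3-fold higher in the extracranial tumor, with an interval from 9.17- to 14.1-fold (log2 ratio 3.50, 3.20 to 3.81). Ordered by the lower bound of the ratio, it stood at place 123 of 21977 genes toward the extracranial library. Per kilobase of exon it went from 0.760 to 8.60 CPM per kb, that is from percentile 25.9 to percentile 73.1 of the protein-coding genes detected.

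Its closest relative Tbx18 (ENSMUSG00000032419, chromosome 9), which acts in somites, ureter mesenchyme and the outer layer of the heart, did not follow. It had 674 and 508 counts, or 19.4 CPM (18.0 to 20.9) in the intracranial and 19.0 CPM (17.4 to 20.7) in the extracranial library. The log2 ratio was -0.03, with an interval from -0.20 to 0.14 that bounds any difference in either direction well under 2-fold for counting error. Of the reads assigned to the pair, Tbx15 took 12.8% (10.5 to 15.4) in the intracranial and 62.9% (60.3 to 65.5) in the extracranial tumor. The odds of a pair read coming from Tbx15 were 11.5-fold higher in the extracranial library (9.06 to 14.8), a quantity that does not depend on library scaling. Per kilobase, Tbx18 exceeded Tbx15 by 5.41-fold in the intracranial tumor, and Tbx15 exceeded Tbx18 by 2.14-fold in the extracranial one, so the order of the pair turned over.

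Tbx20 (ENSMUSG00000031965, chromosome 9), a cardiac transcription factor also used by hindbrain motor neurons, had 0 counts in the intracranial and 33 in the extracranial library. This was 1.23 CPM (0.849 to 1.73) against an upper limit of 0.106 CPM. Set against the floor of 3 counts, Tbx20 was 14.3-fold higher in the extracranial tumor, and at least 10.98-fold higher by the exact interval with the counting error of its 33 counts. It stood at place 86 of 21977 by the lower bound of the ratio, but its level was low: at 0.103 CPM per kb it reached percentile 15.1 of protein-coding genes. Its promoter was taken from RefSeq for GRCm38.p6 (chr9:24774254-24774553, minus strand, 250 bases before to 50 after the start) and is shown because this member alone went from no reads to detected.
Tbx20 promoter: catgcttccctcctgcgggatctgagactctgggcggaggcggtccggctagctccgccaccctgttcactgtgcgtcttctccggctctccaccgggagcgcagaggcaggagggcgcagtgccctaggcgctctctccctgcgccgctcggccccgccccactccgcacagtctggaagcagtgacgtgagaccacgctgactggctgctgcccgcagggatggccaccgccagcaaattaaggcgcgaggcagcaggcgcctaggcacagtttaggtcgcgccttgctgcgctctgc

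This stretch held 26 CpG dinucleotides and 68.3% G and C, against medians of 7 and 52.7% over all RefSeq mouse promoters of the same length. Among the other detected members, the promoters found held 26 and 16 CpG at Tbx1, 15 at Tbx18 and 7 at Tbx6. Of the members at 0, Tbx4 held 8 and each of the 3 promoters listed for Tbx22 held 1 or 2. No promoter was found for Tbx2, Tbx3, Tbx5 or Tbx15, so detected members and those at 0 could not be compared as sets.

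Tbx1 (ENSMUSG00000009097, chromosome 16), which acts in the pharyngeal arches and head muscle progenitors, moved the other way. It had 70 counts in the intracranial and 7 in the extracranial library, or 2.01 CPM (1.57 to 2.55) and 0.262 CPM (0.105 to 0.539). The level was 7.70-fold higher in the intracranial tumor, but with 7 counts the interval ran from 3.55- to 19.9-fold (log2 ratio -2.95, -4.31 to -1.83) and reached inside 4-fold. RefSeq listed 2 promoters for Tbx1, and one of them (chr16:18590622-18590921, minus strand, GRCm38.p6) held the core of the T-box binding motif, AGGTGT, written in capitals.
Tbx1 promoter: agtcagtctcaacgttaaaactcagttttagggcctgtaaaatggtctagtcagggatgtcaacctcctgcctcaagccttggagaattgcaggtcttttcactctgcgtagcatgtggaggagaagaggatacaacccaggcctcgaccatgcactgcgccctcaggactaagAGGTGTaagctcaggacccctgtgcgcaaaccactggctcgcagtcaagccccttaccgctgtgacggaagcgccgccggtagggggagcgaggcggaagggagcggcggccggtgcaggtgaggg

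Among the 9 promoters found for 6 members, this was the only match to AGGTGT on either strand, beginning 76 bases before the gene start. The longer form AGGTGTGA, which contains the shorter one, was in none of the 9. Over all 32851 promoters, AGGTGT occurred in 4514 (13.7%) and AGGTGTGA in 419 (1.28%). A match of letters is a description of the sequence and not a bound site.

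The repressors Tbx2 and Tbx3, linked to escape from senescence through repression of cell cycle inhibitors, differed in direction. Tbx3 (ENSMUSG00000018604, chromosome 5) had 784 counts in the intracranial and 838 in the extracranial library, or 22.6 CPM (21.0 to 24.2) and 31.3 CPM (29.2 to 33.5). It was 1.39-fold higher in the extracranial tumor (1.26 to 1.53). Tbx2 (ENSMUSG00000000093, chromosome 11) had 203 and 66 counts, or 5.84 CPM (5.07 to 6.70) and 2.47 CPM (1.91 to 3.14), which is 2.37-fold higher in the intracranial tumor (1.79 to 3.18). Neither reached the 4-fold rule, yet both intervals excluded equality and lay on opposite sides of it.

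Within the pair, Tbx2 took 20.6% of reads (18.1 to 23.2) in the intracranial and 7.30% (5.69 to 9.20) in the extracranial tumor, so the odds of a pair read coming from Tbx2 were 3.29-fold higher in the intracranial library (2.43 to 4.48). Tbx3 led in both tumors, per kilobase by 2.11-fold in the intracranial and by 6.95-fold in the extracranial one. Tbx5 is a protein-coding neighbour of Tbx3, and Gm11444 is the only protein-coding gene between Tbx2 and Tbx4. Tbx4 and Tbx5 were at 0 in both libraries. Each detected member of these linked pairs therefore had a T-box neighbour with 0 reads at this depth.

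Tbx6 (ENSMUSG00000030699, chromosome 7), which directs paraxial mesoderm toward somites, had 139 counts in the intracranial and 57 in the extracranial library. These were 4.0 CPM (3.36 to 4.72) and 2.13 CPM (1.61 to 2.76), a 1.88-fold higher level in the intracranial tumor (1.37 to 2.60). The intervals did not overlap, and the ratio was under the 4-fold rule. Both neighbouring genes lie within 1 kb of Tbx6 and are far more abundant, Ypel3 at 91.7 and 101 CPM and Ppp4c at 81.8 and 107 CPM. Their log2 ratios were 0.13 and 0.39, opposite in sign to the -0.91 of Tbx6. Any part of these neighbours in the Tbx6 count was not tested.

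The family was made up differently in the 2 tumors. Per kilobase of exon, the order in the intracranial library was Tbx18, Tbx3, Tbx6, Tbx2, Tbx15 and Tbx1, with levels from 4.11 down to 0.573 CPM per kb. In the extracranial library it was Tbx15, Tbx3, Tbx18, Tbx6, Tbx2, Tbx20 and Tbx1, with levels from 8.60 down to 0.0744 CPM per kb. Neighbours in the order whose counting intervals per kilobase overlapped were Tbx15 and Tbx1 in the intracranial and Tbx20 and Tbx1 in the extracranial library, and with the longest transcript as length Tbx3 stood ahead of Tbx18 in the intracranial one. Tbx18 took the greatest share of the summed per-kilobase level in the intracranial tumor (32.4%), ahead of Tbx3 (26.9%) and Tbx6 (17.5%). In the extracranial tumor Tbx15 took 44.3%, ahead of Tbx3 (24.4%) and Tbx18 (20.8%), while Tbx6 took 6.09%. At the lower end, Tbx20 and Tbx1 made up 0.530% and 0.384% of the extracranial sum, and Tbx1 4.52% of the intracranial one.

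**Figure D3:**
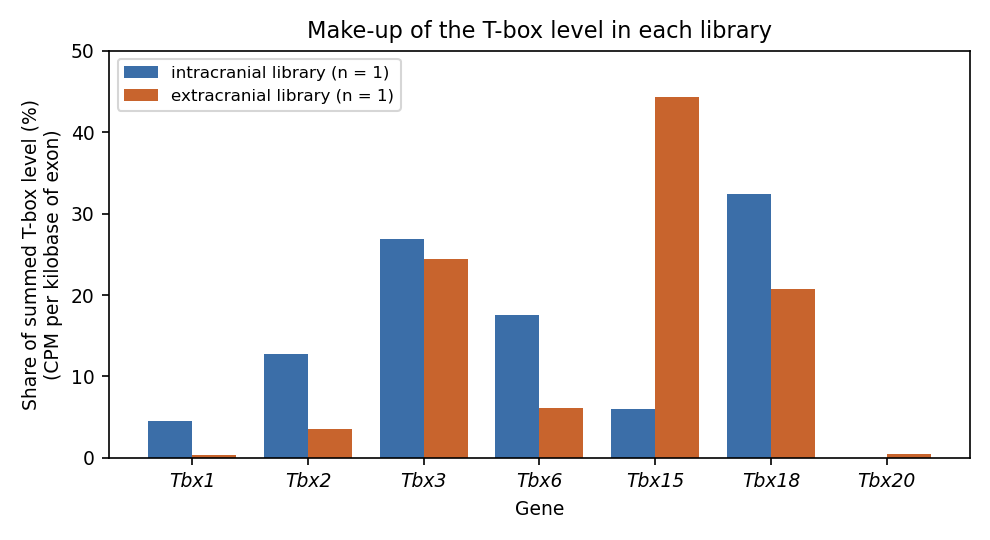
Share in percent of the summed CPM per kilobase of exon taken by each T-box member in the intracranial and the extracranial library, 1 library each. Tbx15 takes 6.0% of the intracranial and 44.3% of the extracranial sum, and Tbx18 takes 32.4% and 20.8%.

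Summed over the 10 members, the family held 56.7 CPM (54.2 to 59.2) in the intracranial and 88.6 CPM (85.1 to 92.2) in the extracranial tumor. The log2 ratio of the sums was 0.64 (0.56 to 0.73), or 1.56-fold. Without Tbx15 it was 0.07 (-0.03 to 0.17), or 1.05-fold. With the libraries scaled over all genes, the difference between the sums therefore rested on that 1 gene. Relative to a set of 7 mesenchyme genes in place of all genes, the sum differed by 1.04 on the log2 scale and Tbx18 turned from -0.03 to 0.36, while the other 6 tested members kept their direction. The sum without Tbx15 was not computed relative to those mesenchyme genes, so whether it still rested on Tbx15 there was not tested.

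The remaining T-box genes of the mouse were sparse, apart from Mga, which pairs a T-box with a MAX-binding domain and held 51.4 and 49.2 CPM (log2 ratio -0.06). Of the 7 found, 4 were tested and 0 were called, with a median log2 ratio of 1.95. Tbx10 had 1 and 13 counts, Tbx21, the T-bet factor of T helper and natural killer cells, had 4 and 21, and Eomes had 16 and 27. T (brachyury) had 0 and 1 counts, Tbx19, a pituitary factor, 1 and 0, and Tbr1 1 and 1. Beside Tbx21, the T and NK cell markers summed to 4.03 CPM in the intracranial and 27.1 CPM in the extracranial library. Of the 6, 3 were called toward the extracranial library, while Cd3e held 1.76 and 1.79 CPM (log2 ratio 0.03, -0.55 to 0.60). The part of such cells in the counts of Tbx21 was not tested.

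Calls in this and each list below stand beside 1.78% of all genes tested called toward the extracranial library and 5.41% toward the intracranial one. Partner proteins of T-box factors showed 0 called genes among 7 tested of 12 listed, with a median log2 ratio of -0.06. The cardiac partners Nkx2-5 and Gata4 had 1 and 0 counts and 0 and 0 counts, so Tbx20 was detected in the extracranial tumor without reads of either. Heart and epicardium regulators gave 1 gene called in each direction among 3 tested of 10, with a median of -0.73. Mef2c, a muscle and neural crest regulator, was 4.74-fold higher in the extracranial tumor (762 and 2783 counts), and Hand2, a regulator of heart, limb and jaw mesenchyme, was 16.3-fold higher in the intracranial one (52.2 and 3.21 CPM). The 6 cardiac muscle markers summed to 7.74 and 2.62 CPM, with 2 called toward the intracranial and 0 toward the extracranial library. The part of cardiac cells in the counts of Tbx20 was not tested.

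Genes of the pharyngeal arches and head muscle progenitors, the setting of Tbx1, had a median log2 ratio of -1.35. Of 10 tested, 4 were called higher in the intracranial library (5.41% over all genes) and 0 in the extracranial one (1.78%). Eya1, a transcriptional coactivator, had 65 and 0 counts, 16.7-fold higher in the intracranial tumor against the floor and at least 13.19-fold by the interval. Fgf10, a growth factor of pharynx, limb and lung, was 13.2-fold higher there (90.1 and 6.84 CPM). Six2, also called and named after its values were seen, had 138 and 10 counts. Skeletal muscle markers summed to 32.1 and 8.11 CPM (2 of 6 called toward the intracranial library), and their part in the Tbx1 difference was not tested.

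Limb and lung mesenchyme genes, the setting of Tbx4 and Tbx5, gave 2 called toward the intracranial library among 6 tested of 10, Hand2 and Fgf10 with the values above, and 0 toward the extracranial one, with a median of -1.61. Fgf10, known as a target of Tbx4 and Tbx5, had 3132 counts in a tumor in which both factors were at 0. The palate list, the setting of Tbx22, gave 1 call in each direction among 13 tested, with a median of 0.26. Osr1 was 7.10-fold higher in the extracranial tumor (6.01 and 42.7 CPM), and Meox2 was 5.19-fold higher in the intracranial one (67.5 and 13.0 CPM). Itm2a, next to Tbx22 on chromosome X, had 4873 and 332 counts (log2 ratio -3.50) and was called, while Tbx22 itself was at 0.

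Paraxial mesoderm and somite genes, the setting of Tbx6, Tbx15 and Tbx18, gave 1 call in each direction among 11 tested of 16, with a median of 0.11. Pax1, a marker of the ventral somite and the pharyngeal pouches, had 15 and 1453 counts and was 126-fold higher in the extracranial tumor (76.0-fold at the lower bound), and Meox2 was called the other way. Dermal mesenchyme genes gave 2 calls toward the extracranial library and 0 toward the intracranial one among 8 tested, with a median of -0.59. En1, a patterning factor of dermis, had 3 and 55 counts (23.8-fold, with an interval from 7.73-fold), and Lum, a collagen-binding proteoglycan of fibroblasts, had 24.5 and 572 CPM (23.3-fold). The calls were on the side of Tbx15 while the median of the list was on the other.

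Among 7 genes known to be repressed by Tbx2 or Tbx3, 2 were called higher in the intracranial library and 0 in the extracranial one, with a median of -1.12. Cdh1, the epithelial cadherin, had 1906 and 26 counts (56.5-fold), and Gja1, a gap junction protein, had 224 and 49.5 CPM (4.52-fold). Cdh1 is also made by keratinocytes, whose 5 markers were all called in that direction. The part of keratinocytes in Cdh1, in Gja1 and in the median of the list was not tested. The cell cycle inhibitors of the list, named after their values were seen, differed in direction, with 324 CPM in both libraries for Cdkn1a (log2 ratio -0.00, -0.04 to 0.04), 29.3 and 44.8 CPM for Cdkn2a (0.61) and 347 and 123 counts for Cdkn2b (-1.12).

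Signals that induce or restrict T-box genes gave 2 calls toward the extracranial and 3 toward the intracranial library among 7 tested of 9, with a median of 1.10. Genes of retinoic acid metabolism were called on both sides. Aldh1a2, which makes retinoic acid, had 16 and 1420 counts (115-fold), and Cyp26a1, which degrades it, had 5 and 41 (10.6-fold), whereas the second degrading enzyme Cyp26b1 was 8.90-fold higher in the intracranial tumor (8.32 and 0.934 CPM). The other calls toward the intracranial library were Bmp7 with 195 and 3 counts and Wnt3a with 28 and 0 counts.

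**Figure D4:**
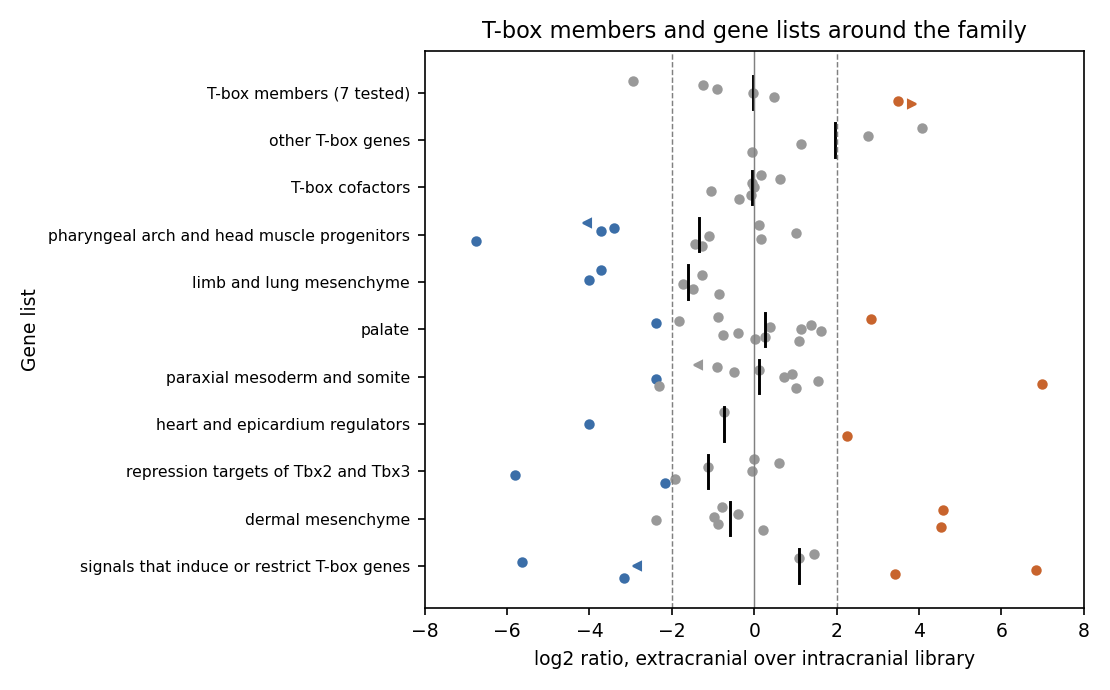
Log2 ratio of extracranial over intracranial level for the tested genes of the T-box family and of each gene list, 1 point per gene. Black bars are list medians, blue and orange mark genes called higher in the intracranial or the extracranial library, and triangles are bounds against 0 counts. The pharyngeal list has 4 called genes, all toward the intracranial library, and the dermal list 2, both toward the extracranial one. Over all genes tested, 5.41% were called toward the intracranial and 1.78% toward the extracranial library.

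The genes beside Tbx15 and Tbx20 were not called. Wars2, next to Tbx15, had a log2 ratio of 0.47 and the opposite-strand gene Gm43120, which overlaps Tbx15, had 5 and 14 counts, against a log2 ratio of 3.50 for Tbx15. Spag17 on its other side had 7 and 1 counts. Near Tbx18, Cep162 and Nt5e had log2 ratios of -0.20 and -1.06 and the overlapping D030062O11Rik had 13 and 25 counts. Both neighbours of Tbx20, Dpy19l2 and Gm10181, were at 0 in both libraries.

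Around Tbx3, Med13l had a log2 ratio of 0.45, close to the 0.47 of Tbx3, the opposite-strand Tbx3os1 had 412 and 335 counts (0.08) and Tbx3os2 had 10 and 31. Rbm19, on the far side of Tbx5, had 0.30. Bcas3 beside Tbx2 had 0.04 and Brip1 beside Tbx4 had 0.52, and 2610027K06Rik, on the other strand within 1 kb of Tbx2, had 15 and 1 counts. Gnb1l and Gp1bb beside Tbx1 had log2 ratios of 0.21 and -1.43. Gm43050, near Tbx5, was at 0 in both libraries, and 2610002M06Rik beside Tbx22 had 0.15.

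Markers of further cell types differed between the libraries as well, and their part in the T-box levels was not tested. Mesenchyme markers summed to 3786 CPM in the intracranial and 4657 CPM in the extracranial tumor, with 1 of 7, Dcn, called toward the extracranial one, but 5 of the 7 had ratios below 1 and the median log2 ratio was -0.39. Mural cell markers summed to 369 and 443 CPM, with 2 of 6 called toward the extracranial library. Of these 6, 4 had ratios above 1 and 2 below, with log2 ratios from -2.15 to 2.57. Macrophage markers summed to 4223 and 8543 CPM (0 of 5 called). Of the 5 cartilage markers, Comp was called toward the intracranial library (186 and 10.1 CPM), and the others lay under 1 CPM in both. Sensory neuron markers (21.4 and 11.3 CPM) and melanocyte markers (10.4 and 18.2 CPM, Tyrp1 at 0 in both) had 0 called genes. With 2 libraries, every gene that differs lines up with every marker that differs, so these values cannot link a T-box gene to a cell type.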

How the data were processed

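The authors deposited a table of unnormalized read counts that covers 55416 Ensembl genes in 1 column for each tumor. Poly(A) RNA had been selected, directional libraries sequenced as single reads, and reads aligned with STAR 2.7.9a (default parameters, GRCm39) and counted with featureCounts. The strand setting and the treatment of reads with several alignments were not stated, which affects overlapping genes. The 2 libraries, grouped by the localization label, held 34545846 and 26915696 counts.

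Scaling factors for library size came from the TMM method of edgeR 4.0.16 in R 4.3.3 (factors 1.006 and 0.994). Levels were given exact Clopper-Pearson 95% intervals (scipy 1.17.1) and ratios conditional exact binomial intervals, where both libraries together held at least 10 counts. Calls required the entire interval to exceed 4-fold. A count of 0 was set to the floor of 3 counts. Counts of 1 to 3 were kept. With 1 library per location, edgeR's quasi-likelihood model could not be fitted and no p-value was computed. Symbols (52135 IDs, 94.1%), exon lengths and gene positions came from GENCODE M21 on GRCm38, promoters from RefSeq (GRCm38.p6, found for 6 members, missing for Tbx2, Tbx3, Tbx5 and Tbx15). IDs without a symbol held 0.694% and 0.950% of counts and stayed in the library sizes and in the genes tested.

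All 10 members and the 7 further T-box genes are named. Of each other list, up to 3 called genes in each direction with the ratio farthest from 1 are named, with the nearest protein-coding neighbours and opposite-strand genes of members. Nkx2-5, Gata4, Cd3e, Cdkn1a, Cdkn2a and Cdkn2b were named after their values were seen. Single genes of the lists, and 2 marker lists that rest on them, are not reported here. The members and lists were chosen with earlier results of these data known. Other scalings (DESeq2 1.42.0 size factors, total counts, upper quartile, mesenchyme genes), count filters, thresholds, lengths and prior counts were tried as alternatives.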

Additional observations from a re-analysis of the deposited data

How the results depend on the processing

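No paired analysis was possible because there was 1 library per location, which also meant that neither could be left out. With 100 or more counts required, 5 members were tested and 1 was called, Tbx15, higher in the extracranial library, since Tbx20 was no longer tested. With an interval beyond 2-fold, or a ratio beyond 4-fold without an interval, 1 member was called higher in the intracranial library, Tbx1, which made 3 called members in place of 2, and 3434 or 2752 of all genes were called in place of 1581. In the intracranial library, Tbx3 moved from rank 2 to rank 1 and Tbx18 from rank 1 to rank 2 by CPM and by the length of the longest transcript, and Tbx15 moved from rank 5 to rank 6 by the latter. Scaling to the 7 mesenchyme genes moved the log2 ratio of the summed level from 0.64 to 1.04 and the median of all genes from -0.04 to 0.35, and the genes called were 614 higher in the extracranial and 992 higher in the intracranial library in place of 391 and 1190. Tbx18 then had a log2 ratio of 0.36. Under the remaining alternatives, the same number of members was called in each direction, and pair shares, list medians and sums kept their direction. Counting error alone is covered: how far tumors of 1 location vary is not measured here, and low members such as Tbx1 in the extracranial library rest on 7 counts.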
